A study of Mus musculus with 21 samples.

Results

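The genes of the cytosolic ribosomal proteins, the proteins that with ribosomal RNA make up the ribosome of the cytoplasm, were followed in RNA of mouse microglia with and without apolipoprotein E (ApoE). Members were the genes named Rpl or Rps followed by a digit, with Rplp0, Rplp1, Rplp2 and Rpsa. Names with -ps, which mark pseudogenes, and the Rps6k kinases were left out. The rule found 87 members among 18079 genes in the table of uninjected mice and 89 among 13297 genes in the table of injected mice. Of the 87 members found in both tables, 31 encode proteins of the small subunit, 43 of the large subunit and 3 of the P-stalk. Another 8 are paralogs or copies, and 2 genes, Rpl7l1 and Rps19bp1, carry the name but do not encode ribosomal proteins.

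A ribosome holds 1 copy of nearly every ribosomal protein, and cells keep the production of these proteins in balance with one another and with ribosomal RNA. In mammals the messages of most of these genes start with a run of pyrimidines, the terminal oligopyrimidine (TOP) tract, through which the kinase mTOR controls their translation together. Microglia are the resident macrophages of the brain, and mTOR signalling is among the pathways that change when they are activated.

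The 4 groups were ApoE knockout females of strain B6.129P2-Apoetm1Unc/J, not injected (KO, n = 4), C57BL/6 wild-type females, not injected (WT, n = 7, numbered 1 to 4 and 6 to 8), knockout males of the same strain injected in the brain with recombinant APOE protein in phosphate-buffered saline (rAPOE, n = 5), and such males injected with the saline alone (PBS, n = 5). All mice were 12 to 18 weeks old. Injected mice were sampled after 16 h, and the knockout is carried by both injected groups. The labels name neither the hemisphere behind a library nor the mouse, so the replicate spread on which each p-value rests may be partly technical.

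Libraries held 4247865 to 4969287 reads in KO, 2016972 to 3054976 in WT, 857059 to 1119059 in rAPOE and 704225 to 1347501 in PBS. The KO libraries, though deeper, detected fewer genes, 8117 to 10479 in KO, against 13592 to 15248 in WT, and the part of this in the differences between KO and WT was not tested. Apoe itself was at 10.2, 0, 0 and 23.1 in the KO libraries, against 13196 to 17164 in WT libraries 1 to 7 and 1011 in WT library 8. WT library 8 stood apart from its group in this and in other measures. Counts of members and of most lists, and the fits of most named members, are therefore given with and without it. Fits of named genes from the other lists use all libraries. Libraries labelled as female WT other than 8 held 11 to 36 reads of Y-linked genes, against 0 in all KO libraries and in WT library 8, and rAPOE library 5 and PBS library 5, labelled male, held 0 Y-linked reads and Xist. The 8 choroid plexus and ependymal markers summed to 0.0196 to 0.0362% of the KO libraries, against 2.39 to 3.51% of WT libraries 1 to 7 and 0.649% of WT library 8, and 3 of them, Folr1, Sostdc1 and Foxj1, were at 0 in all KO libraries. The 8 neuron markers summed to 0 to 0.00231% in KO, against 0.0229 to 0.0321% in WT 1 to 7 and 0.00134% in WT library 8, with Map2, Rbfox3, Syp and Nefl at 0 in all KO libraries. The 14 microglia markers were all detected and summed to 4.67 to 4.80% in KO, against 3.201 to 3.52% in WT 1 to 7 and 2.49% in WT library 8. The part of other cell types and of sex in the differences between KO and WT was not tested, and in bulk RNA fewer cells of a type and less RNA per cell cannot be told apart.

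The starts of these genes are shown because the pyrimidine tract is what ties the family together in translation. RefSeq promoters (GRCm38.p6) were at hand for 57 of the 77 subunit and stalk genes. A tract was scored as C followed by at least 4 letters C or T on the gene's own strand, the first C lying within 3 bases of the annotated start. It was found in 23 of the 57 genes (40.4%), against 13.5% of all 27025 genes of the promoter table. The sequence CGGAAG, on either strand between 100 bases before and 50 bases after the start, was found in 30 of the 57 (52.6%), against 13.5% of all genes. Among the 12008 other genes measured here that have an entry, 15.1% held a tract and 23.2% held CGGAAG. The windows below run from 20 bases before the start to 20 bases from the start on, in the direction of the gene, with the tract in capitals.
Rplp2, chr7:141447631-141447670, plus strand: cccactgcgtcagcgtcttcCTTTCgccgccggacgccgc
Rpl35, chr2:39005112-39005151, minus strand: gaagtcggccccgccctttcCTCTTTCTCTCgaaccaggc
Rps24, chr14:24490658-24490697, plus strand: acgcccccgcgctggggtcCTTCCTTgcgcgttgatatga
Rps15a, chr7:118116128-118116167, minus strand: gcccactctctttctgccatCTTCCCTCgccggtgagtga
Rpl14, chr9:120571497-120571536, plus strand: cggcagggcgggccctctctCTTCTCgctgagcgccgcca
Rplp0, chr5:115559447-115559486, plus strand: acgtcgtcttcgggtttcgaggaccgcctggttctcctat
Rpsa, chr9:120127746-120127785, plus strand: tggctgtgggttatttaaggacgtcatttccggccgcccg
Rpl39, chrX:37085203-37085242, minus strand: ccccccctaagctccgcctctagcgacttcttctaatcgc
Rps2, chr17:24720043-24720082, plus strand: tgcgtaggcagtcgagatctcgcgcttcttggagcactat
The first 5 genes hold a tract by this rule and the last 4 do not, at the start that RefSeq annotates. The windows of Rplp0, Rpl39 and Rps2 do hold a C followed by at least 4 letters C or T further past that start. Their label thus depends on where the start is annotated. Genes of both kinds are found among those that differed between KO and WT below.

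Each value is a normalised count, the number of 3′ tags of a gene divided by a library-wide factor. Tags come from the 3′ ends of transcripts whatever their length, and copies of the same tag are not told apart. Within the uninjected table the highest mean tag level belonged to Rplp1, 5138 over the 11 libraries, followed by Rps14 at 4444, Rps21 at 3811, Rplp2 at 3528 and Rps12 at 3442. The ranges of these genes over the libraries overlap, though Rplp1 was above Rps21 and Rps12 in every library. Rps14 and Rplp2 were above Rplp1 in some WT libraries and below it in all KO libraries. The lowest mean levels among tested members were 11.6 for Rps27rt, 12.9 for Rpl37rt, 29.97 for Rps6, 46.5 for Rpl15 and 52.1 for Rps19bp1. In the injected table Rplp1 (3773), Rps21 (2924), Rpl37 (2663), Rps29 (2629) and Rps12 (1170) were highest, and Rpl10a (10.8), Rpl36al (17.4), Rps27rt (20.02), Rps19bp1 (21.6) and Rpl29 (32.7) lowest. The 5 most abundant members made up 23.8 to 27.3% of all member tags in KO libraries, against 24.8 to 26.1% in WT libraries, WT library 8 included. Across the 82 members tested in both tables the mean levels had a Spearman rho of 0.88, as a description of one kit and one cell type.

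Low tag levels in this family need to be read beside the many copies of these genes in the mouse genome. Of the last 200 bases of each member's principal transcript (GENCODE M21), cut into windows of 50 bases, 110 of 151 windows (72.8%) of Rps6, the target of S6 kinases, were found letter for letter in transcripts of 10 other annotated genes. For Rpl24 it was 69.5% of the windows, for Rpl10a 79.5% and for Rpl10 100%. For 31 of the 77 subunit and stalk genes, among them Rplp0, Rplp2, Rpl21, Rpl39 and Rpsa, no window was shared with any other gene. Rpl35 shared 99.3% of its windows with 4 other genes, Rpl36 82.1% with 11, Rps2 78.1% with 40 and Rplp1 45.0% with 3. Mean levels were 46.5 to 3528 (median 788) for the 31 members with no shared window and 6.06 to 3442 (median 516) for the 29 that shared 50% or more but not every window. The median was 1071 for the 13 members that shared fewer and 775 for the 4 that shared every window, so levels did not follow sharing in order. How tags that fit several places were counted is not given in the sources used here, so values of members with shared windows are uncertain, and so are those of the genes that share them.

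The part of the RNA held by ribosomal protein genes overlapped between the genotypes, while their summed level on the deposited scale did not once WT library 8 was left out. Their summed share was 3.43, 3.55, 3.91 and 3.48% in KO libraries 1 to 4, against 3.38 to 3.81% in WT libraries 1 to 7 (median 3.69%). KO library 3 lay above every WT library and the other KO libraries within the range of WT 1 to 7. The summed normalised count was 75955 to 82607 in KO, against 82738 to 92385 in WT 1 to 7 and 36186 in WT library 8, so on the scale of the fits all KO libraries were below WT 1 to 7 and above WT library 8. WT library 8 held 0.994%, below every other library of the study. In that library 79 of the 84 members tested were below all other WT libraries, against 36.4% of all genes tested, and the median member stood at 42.4% of the mean of the other WT libraries, against 90.6% for all genes. Rps6 was the exception above its group, at 154% of the mean of the other WT libraries, and Rpl35, Rps4l, Rpl7l1 and Rps19bp1 lay within their range. Opposite to the members' share, that of mitochondrial ribosomal RNA was higher in WT library 8, at 4.67%. It was 0.647 to 0.886% in KO libraries and 1.36 to 1.59% in the other WT libraries. Its part in the result was not tested.

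**Figure D1:**
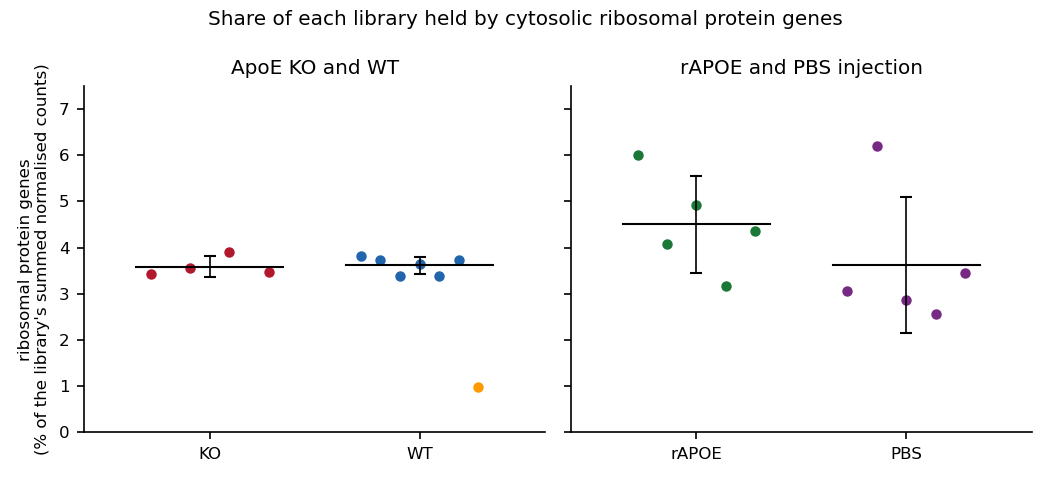
Share of each library's summed normalised counts held by the ribosomal protein genes (vertical axis, percent), by group; each point is a library, lines are means with SD, and WT library 8 (orange) is left out of the WT mean. KO and the other WT libraries overlap at 3.38 to 3.91%, WT library 8 stands at 0.994%, and the injected libraries spread from 2.56 to 6.20%.

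With all libraries, few members differed between KO and WT. Of 84 members tested, 2 rose and 3 fell (5.95%; limma on log2(normalised count + 1), Benjamini-Hochberg adjusted p under 0.05 over 10401 genes), against a background of 25.0% of all genes, 5.14% higher and 19.8% lower. The median log2 difference of the members was -0.05, against -0.45 for all genes. Without WT library 8, 5 members rose and 23 fell (33.3%), against 30.6% of the 10352 genes then tested, 7.64% higher and 23.0% lower. On the deposited scale the share of members that passed was thus near that of all genes. The median was then -0.21, against -0.47 for all genes, and 2 members lay wholly above and 19 wholly below the WT range, against 5.89% and 18.1% of all genes. Among genes with a mean of 500 or more, 21 of 49 members (42.9%) passed without WT library 8, against 359 of 572 genes (62.8%), with 18 of the members and 155 of the genes lower.

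The place of the family against all genes depends on the scaling. Quantile scaling moved the median of all genes to 0.09 both with and without WT library 8. The members' median was then 0.04 with all libraries and -0.18 without WT library 8. Relative to all genes the members therefore lay higher on the deposited scale and lower on the quantile scale. Of the 28 members that passed without WT library 8, 27 passed in the same direction with TMM scaling, 27 with quantile scaling and 23 with edgeR's quasi-likelihood test on recovered reads. The 23 that passed in all of these were Rplp1, Rpl39, Rpl7l1 and Rps24, which rose, and 19 that fell.

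**Figure D2:**
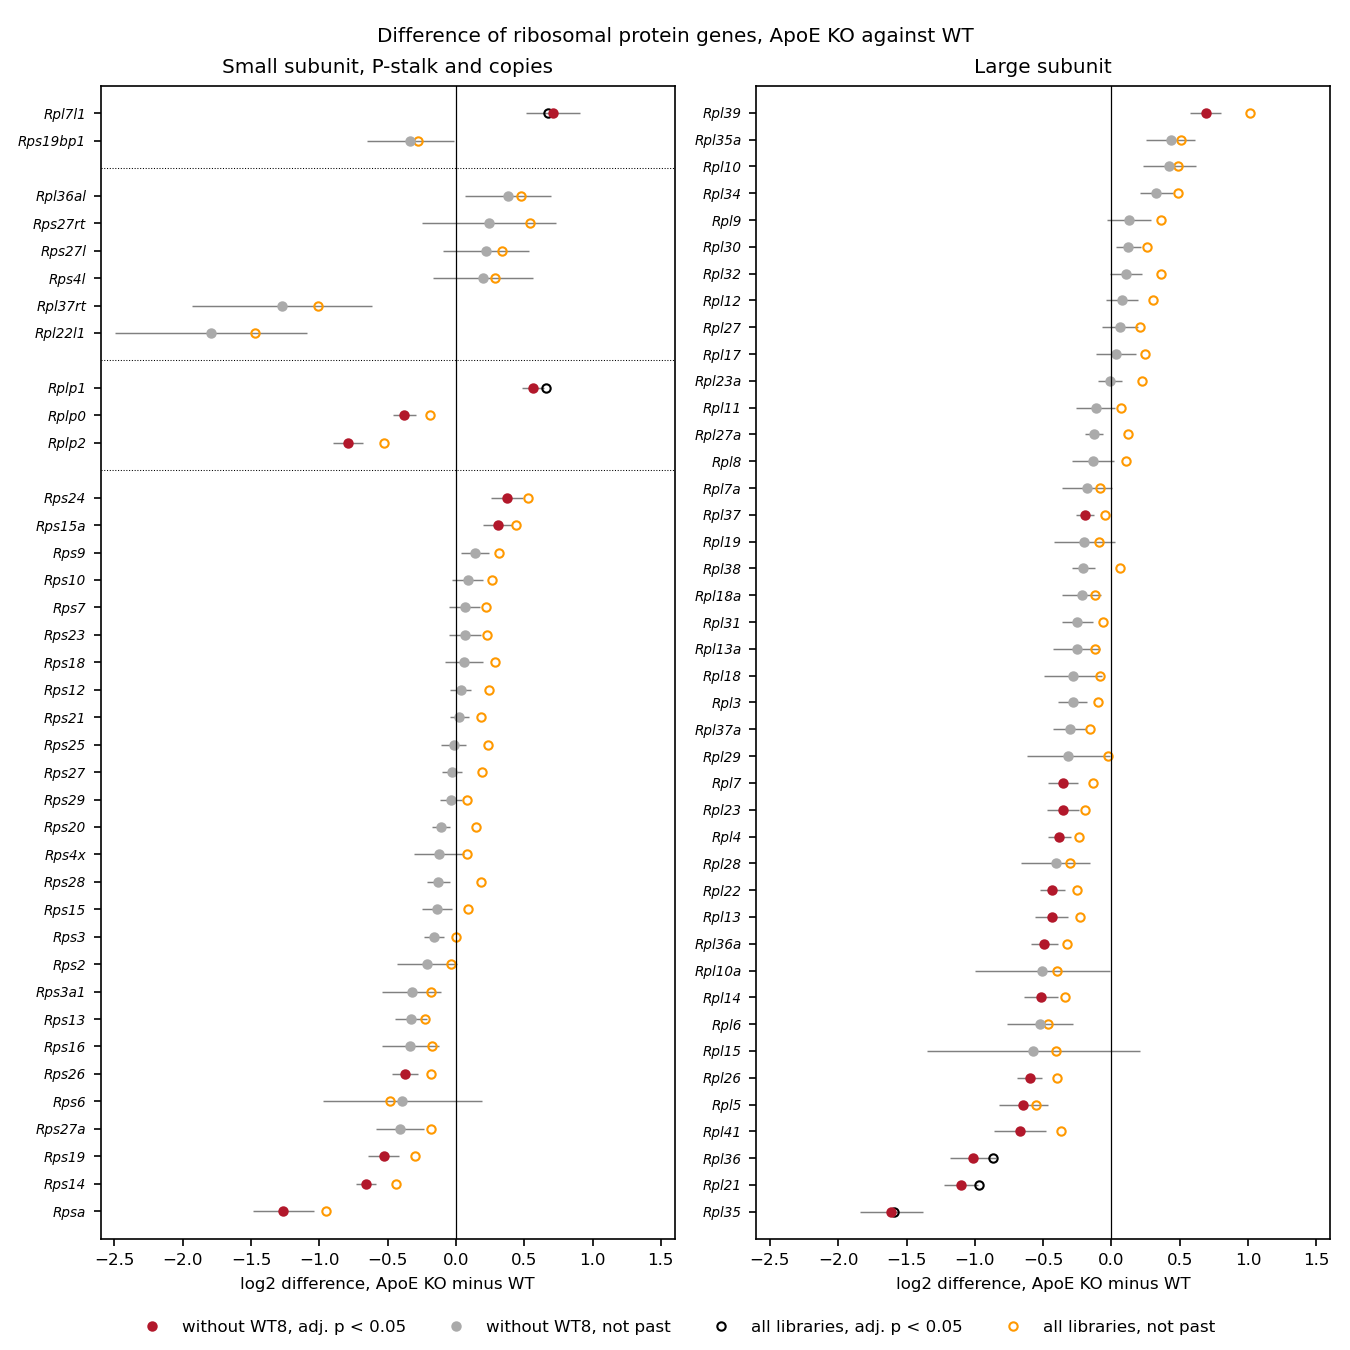
Log2 difference, KO minus WT, of 80 of the 84 members tested (horizontal axis), by class. Filled points leave out WT library 8, with SE, red past the adjusted p of 0.05 and grey not; open points use all libraries, black past it and orange not. Of the members drawn, 5 pass as higher and 20 as lower without WT library 8, against 2 and 3 with it.

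The 3 P-stalk proteins, which recruit elongation factors to the large subunit, moved apart. Rplp0 anchors the stalk and carries dimers of Rplp1 and Rplp2. Rplp1 (chr9:61913284-61914542, minus strand) had normalised counts of 7026, 7023, 6264 and 6323 in KO, against a lowest, median and highest of 4046, 4389 and 5353 in the other WT libraries and 2795 in WT library 8. Every KO library was above every WT library. The rise was 0.66 on the log2 scale with all libraries (SE 0.16, limma adjusted p = 0.00674) and 0.56 without WT library 8 (SE 0.08, adjusted p = 0.000162).

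Rplp2 (chr7:141447370-141451585, plus strand), whose tract is printed above, went the other way. Its values were 3221, 2863, 2189 and 2251 in KO, against 4053, 4458 and 5059 (lowest, median, highest) in WT 1 to 7, and 1257 in WT library 8. KO lay wholly below WT 1 to 7 and above WT library 8. Its log2 difference was -0.53 with all libraries (SE 0.31, limma adjusted p = 0.234) and -0.79 without WT library 8 (SE 0.11, adjusted p = 0.000128), so the call rests on leaving that library out. Rplp0 (chr5:115559467-115563727, plus strand) had 766, 686, 670 and 689 in KO, against 804, 938 and 994 in WT 1 to 7, and 367 in WT library 8. It fell by 0.38 without WT library 8 (SE 0.08, limma adjusted p = 0.00402), and its difference with all libraries was -0.19 (adjusted p = 0.573). The ratio of Rplp1 to Rplp2 tags, a measure chosen after the values were seen and given with no test, was 2.18 to 2.86 in KO, against 0.865 to 1.18 in WT 1 to 7 and 2.22 in WT library 8. The ratio of WT library 8 thus lay with KO and not with its own group.

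**Figure D3:**
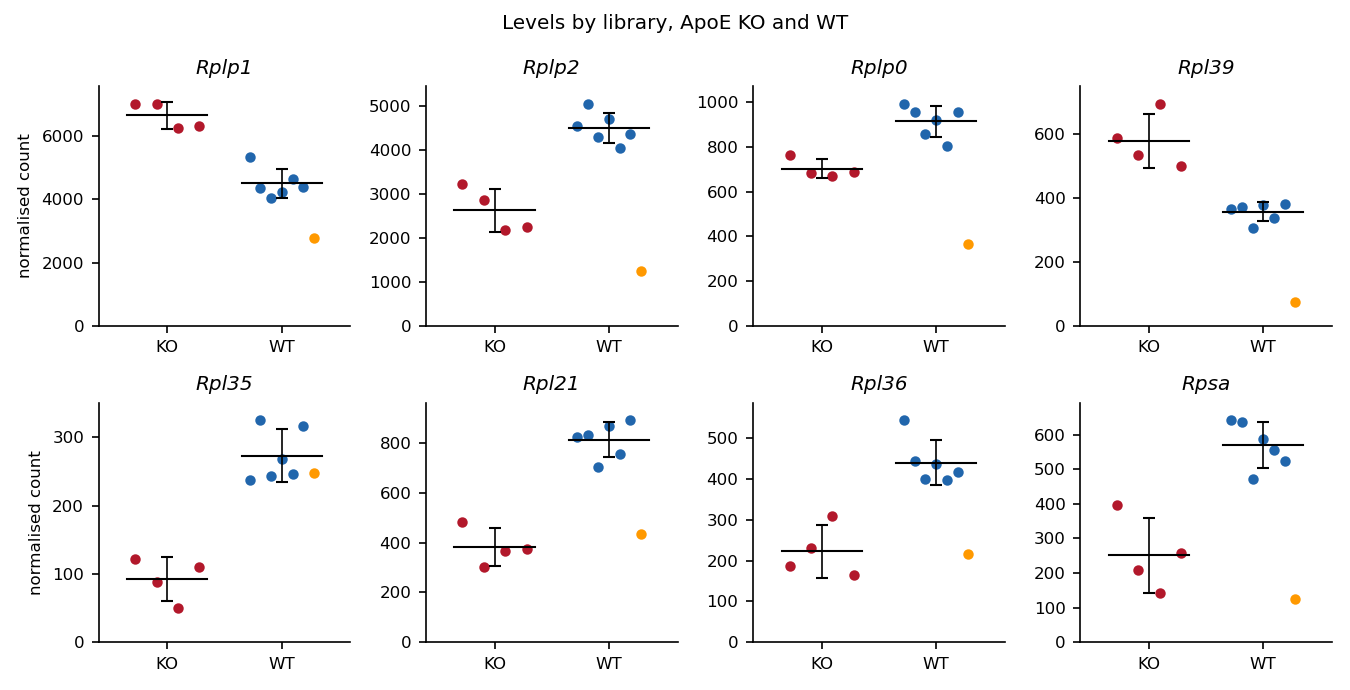
Normalised counts (vertical axes, from 0) of 8 members in KO and WT libraries; each point is a library, lines are means with SD, and WT library 8 (orange) is left out of the WT mean. Rplp1 and Rpl39 are higher in every KO library than in any WT library, while in Rpl35, Rpl21, Rpl36, Rpsa, Rplp2 and Rplp0 KO lies below WT 1 to 7.

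Of the 42 large subunit genes tested, 3 fell and 0 rose with all libraries, against 19.8% and 5.14% of all genes. Without WT library 8, 14 fell and 1 rose, against 23.0% and 7.64% of all genes. Rpl35 (chr2:39001580-39005624, minus strand), a protein near the exit of the peptide tunnel, had 122, 88.6, 50.1 and 110 in KO, against 238, 258 and 325 (lowest, median, highest) in WT 1 to 7 and 247.3 in WT library 8. All 7 WT libraries were above all 4 KO libraries, and the KO mean was 2.95-fold lower than that of WT 1 to 7. Its log2 difference was -1.59 (SE 0.23, limma adjusted p = 0.000184), and -1.61 without WT library 8.

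Rpl21 (chr5:146832890-146837032, plus strand) had 482, 303, 367 and 375 in KO, against 704, 827 and 890 in WT 1 to 7 and 435 in WT library 8. KO lay below WT apart from an overlap with WT library 8. Its log2 difference was -0.97 (SE 0.20, limma adjusted p = 0.00239), and -1.10 without WT library 8. Rpl36 (chr17:56613416-56614243, plus strand) had 186, 230, 310 and 164 in KO, against 397, 426 and 543 in WT 1 to 7 and 217 in WT library 8. It fell by 0.87 (SE 0.24, limma adjusted p = 0.0152), and by 1.01 without WT library 8. Without KO library 4 its adjusted p was 0.0513.

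Rpl39 (chrX:37082520-37085402, minus strand), a very small protein in the wall of the peptide tunnel, was the large subunit gene that rose without WT library 8. It had 587, 536, 695 and 500 in KO, against 306, 369 and 381 in WT 1 to 7 and 74.0 in WT library 8. All KO values were above all WT values. The difference was 1.01 with all libraries (SE 0.37, limma adjusted p = 0.0618) and 0.69 without WT library 8 (SE 0.11, adjusted p = 0.000509). The gene is on the X chromosome, as are Rpl10, Rpl36a and Rps4x. Without WT library 8 these 3 had log2 differences of 0.42, -0.49 and -0.12. Markers of sex differed between KO and WT, and the part of sex in these differences was not tested.

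The other 11 large subunit genes that fell without WT library 8 did so by less. Rpl41 fell by 0.67 (limma adjusted p = 0.0183), Rpl5, which with Rpl11 can hold the p53 regulator Mdm2, by 0.65 (adjusted p = 0.0165), and Rpl26 by 0.60 (adjusted p = 0.0003). Rpl14 fell by 0.52, Rpl36a by 0.49, Rpl13 by 0.44, Rpl22 by 0.43, Rpl4 by 0.38, Rpl23 by 0.35, Rpl7 by 0.35 and Rpl37 by 0.19 on the log2 scale. Rpl23, Rpl7 and Rpl37 did not pass in edgeR without that library. Rpl11 itself had a log2 difference of -0.12 without WT library 8 and 0.07 with it, and did not pass.

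Rpl24 was not tested because its mean was under 10. It was at 0 in all 4 KO libraries, where 3 reads, the limit that a count of 0 allows, would be 1.30 to 1.70. In WT 1 to 7 it had 1.97 to 32.6 (median 7.74), and it was at 0 in WT library 8. Its tag level is far under that of its partners in the subunit, and 69.5% of its last windows are shared with 6 other genes.

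Of the 31 small subunit genes 0 passed with all libraries in limma or edgeR, with 5 at an unadjusted p under 0.05 in each. Among all genes 25.0% passed in limma with all libraries. An unadjusted p under 0.05 was found for 3794 of 10401 genes in limma and 2793 in edgeR. Without WT library 8, 2 rose and 7 fell, against 7.64% and 23.0% of all genes, which is near the background. Rpsa (chr9:120127689-120132369, plus strand), also known as a laminin receptor, had 396, 209, 142 and 259 in KO, against 472, 572 and 641 (lowest, median, highest) in WT 1 to 7 and 125 in WT library 8. KO lay between WT library 8 and the other WT libraries. It fell by 1.26 without WT library 8 (SE 0.22, limma adjusted p = 0.000942), and its difference with all libraries was -0.95 (SE 0.40, adjusted p = 0.0994).

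Rps14, which sits on the platform of the small subunit, had 3881, 3526, 3274 and 3265 in KO, against 4860, 5557 and 5896 in WT 1 to 7 and 1907 in WT library 8. Every KO library was below WT 1 to 7 and above WT library 8. It fell by 0.66 without WT library 8 (SE 0.08, limma adjusted p = 2.35e-05), with a difference of -0.44 with all libraries (adjusted p = 0.234). The other small subunit genes that fell without WT library 8 included Rps19, by 0.53, and Rps26, by 0.37. RPS19 and RPS26 are mutated in the human blood disease Diamond-Blackfan anaemia.

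Rps24 (chr14:24487125-24496959, plus strand), another gene mutated in that disease in humans, rose. It had 3852, 2593, 2727 and 3600 in KO, against 2148, 2472 and 2633 in WT 1 to 7 and 1161 in WT library 8. KO library 2 lay within the WT range. The rise was 0.37 without WT library 8 (SE 0.12, limma adjusted p = 0.0285), with a difference of 0.52 with all libraries (adjusted p = 0.0866). Rps15a rose by 0.30 without WT library 8 (adjusted p = 0.0471) and did not pass with TMM, quantile scaling or edgeR without that library.

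**Figure D4:**
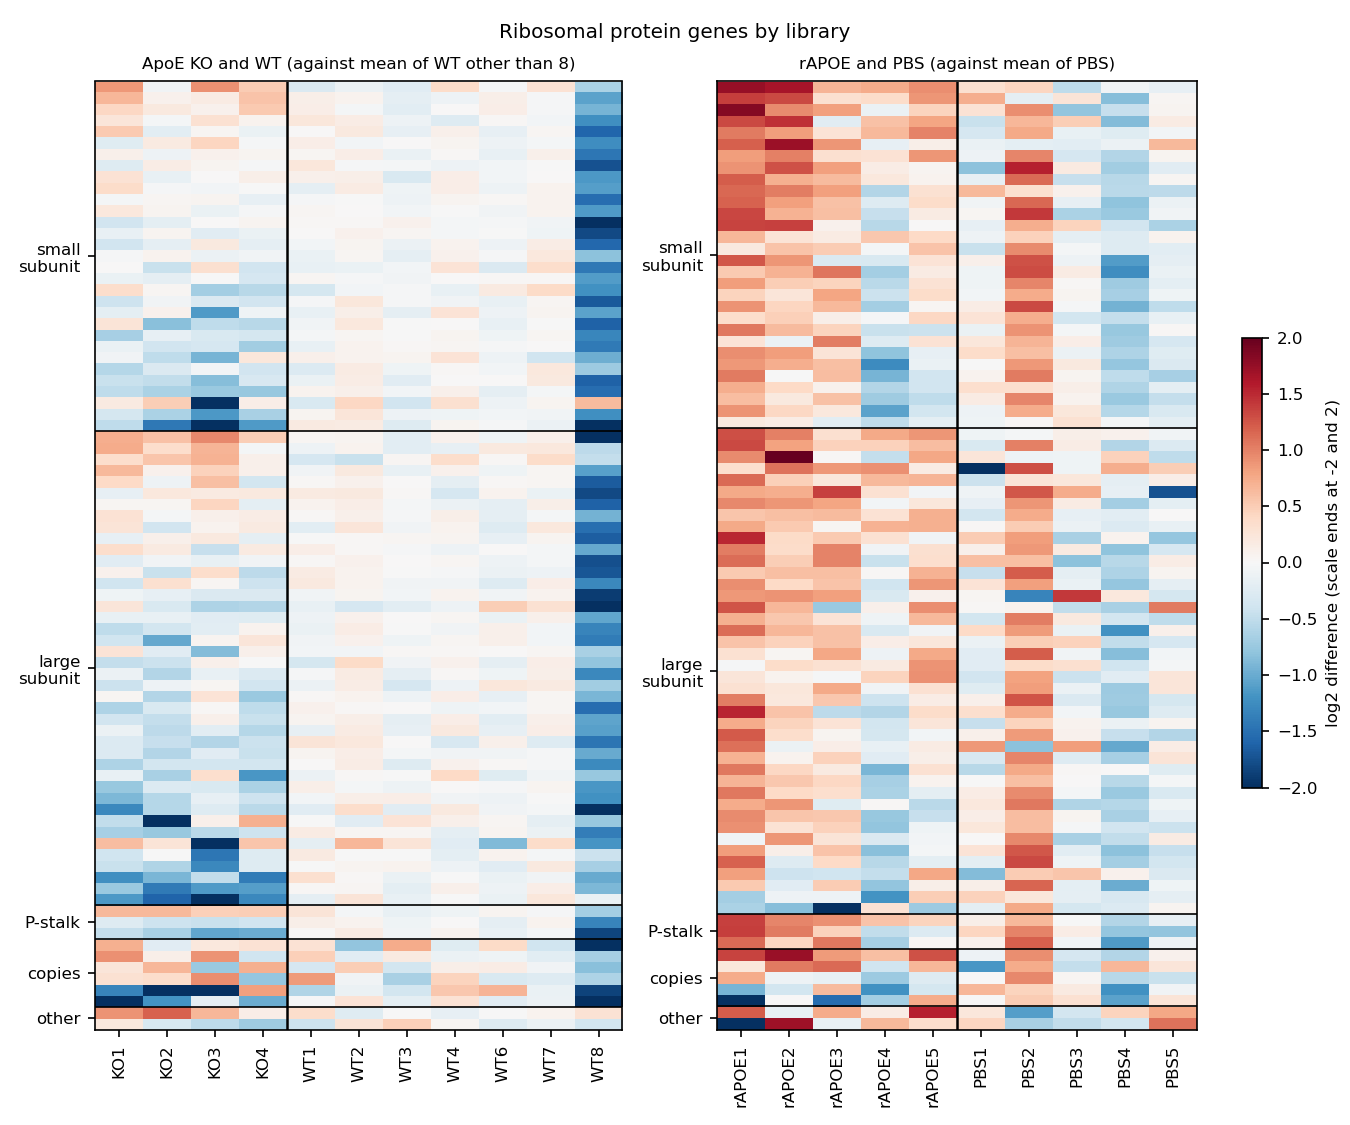
Log2 difference of every tested member (rows, by class, ordered by the fitted difference) from the mean of WT libraries 1 to 7 (left) and of the PBS libraries (right), in each library (columns); the colour scale ends at -2 and 2. WT library 8 is low in 79 of 84 members, and in the injected libraries rAPOE library 1 and PBS library 2 are high and rAPOE library 4 and PBS library 4 low in most members.

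With all libraries 6 paralogs and copies were tested between KO and WT. In limma on the deposited scale 0 passed, against 25.0% of all genes. In edgeR 0 passed, against 498 genes higher and 1159 lower of 10401. At an unadjusted p under 0.05 were 0 in either tool, against 3794 genes in limma and 2793 in edgeR. Of 5 tested after injection 0 passed in either tool, against 0.481% of all genes in limma. At an unadjusted p under 0.05 was 1 in each, against 792 of 7066 genes in limma and 576 in edgeR. Rpl22l1, which in mouse is raised when its parent Rpl22 is lost, had 2.84, 45.9, 93.4 and 52.8 in KO, against 90.7, 101 and 130 (lowest, median, highest) in WT 1 to 7 and 21.7 in WT library 8. Its log2 difference was -1.47 (SE 0.74, limma adjusted p = 0.164) and -1.79 without WT library 8 (adjusted p = 0.0744), beside the fall of 0.43 in Rpl22. Rps27l, a p53-responsive paralog of Rps27, had a difference of 0.34 (adjusted p = 0.496) and Rps27 one of 0.19 (adjusted p = 0.621), which was -0.03 without WT library 8. Rpl36al had 0.48 beside -0.32 for Rpl36a, Rps4l 0.29 beside 0.08 for Rps4x (-0.12 without WT library 8), Rps27rt 0.54, and Rpl37rt -1.01 beside -0.05 for Rpl37, none of which passed on the deposited scale with all libraries. With quantile scaling Rps27rt passed as higher, at 2.05 with all libraries (limma adjusted p = 0.0142), and Rpl37rt changed sign. With that scaling and without WT library 8, Rps27rt (2.001) and Rpl22l1 (-1.27, limma adjusted p = 0.0364) passed.

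Rps3a3, annotated as a pseudogene, was not tested and had 0 to 1.34 in KO, against 10.01 to 20.4 in WT 1 to 7 and 0 in WT library 8. Its parent Rps3a1 had 135 to 302 in KO, against 196 to 314 in WT 1 to 7 and 132 in WT library 8, and did not pass. Rpl39l, also under the filter, had 0 to 15.3 in KO, against 2.40 to 10.4 in WT 1 to 7.

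Rpl7l1 (chr17:46773907-46782672, minus strand), a relative of Rpl7 that takes part in assembling the large subunit, rose in KO. It had 317, 387, 270 and 186 in KO, against 145, 170 and 217 in WT 1 to 7 and 208 in WT library 8. KO library 4 lay within the WT range. The rise was 0.67 (SE 0.21, limma adjusted p = 0.0294), and 0.71 without WT library 8 (adjusted p = 0.0161). The call was lost without WT library 2, 3, 4, 6 or 7 and without KO library 1 or 2, with adjusted p-values of 0.0507 to 0.0939 in those fits. Rps19bp1 had a difference of -0.28 and did not pass.

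Genes with and without a scored tract were found on both sides. Without WT library 8, of 23 members with a tract 2 rose and 3 fell, with a median of -0.13. Of 33 tested members without one 1 rose and 13 fell, with a median of -0.33. Among all genes 7.64% rose and 23.0% fell, with a median of -0.47. With all libraries 0 rose and 1 fell with a tract, and 0 rose and 0 fell without one. The shares of all genes were then 5.14% and 19.8%. The groups with and without a tract were formed after the values were known, depend on where each start is annotated, and carry no test.

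Genes that work with the ribosome were taken from lists chosen with earlier results known. Of 13 elongation and release factors tested, 2 fell with all libraries and 2 without WT library 8, against 19.8% and 23.0% of all genes. Eef2, which moves the ribosome along the message and binds the P-stalk, fell by 0.62 (limma adjusted p = 0.0290), at 1744 to 2242 in KO, against 3256 to 3949 in WT 1 to 7 and 1748 in WT library 8. Eef1d fell by 0.78 (adjusted p = 0.0290).

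Of 35 initiation factors, 7 fell with all libraries, and 10 fell without WT library 8, against 19.8% and 23.0% of all genes. Eif3a, the scaffold of eIF3, fell by 1.30 (limma adjusted p = 0.000244), Eif3c by 0.72, Eif5b by 1.25 and Eif1ax by 1.73. Of 44 ribosome biogenesis factors, 8 fell and 1 rose with all libraries, against 19.8% and 5.14% of all genes, which is near the background. Without WT library 8, 8 of 43 fell and 1 rose, against 23.0% and 7.64% of all genes. Ncl (nucleolin) fell by 1.02 (limma adjusted p = 0.000313), Dkc1 by 1.48 and Nop58 by 0.999, while Nip7 rose by 1.29. Of 14 other genes with a TOP start, 3 fell and 1 rose with all libraries, against 19.8% and 5.14% of all genes. Without WT library 8, 6 fell and 1 rose, against 23.0% and 7.64% of all genes. Vim fell by 4.37, Nap1l1 by 1.07 and Npm1 by 0.63, and Tpt1 rose by 0.41.

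Of 31 genes of mTOR and S6 kinase signalling, 4 rose and 3 fell with all libraries, against 5.14% and 19.8% of all genes. Without WT library 8, 5 rose and 4 fell, against 7.64% and 23.0% of all genes. Sesn1, a stress-induced mTORC1 inhibitor that also stands in the list around Mdm2, rose by 1.33 (limma adjusted p = 0.000999), Rps6ka1 by 0.81, and Rragc by 0.68. Rragd was at 0 in all KO libraries, against 34.8 to 59.3 in WT 1 to 7 and 14.4 in WT library 8, and passed as lower (limma adjusted p = 1.4e-05). Of 8 genes of the integrated stress response 0 passed in limma, with 1 at an unadjusted p under 0.05, and 0 at either level in edgeR. In the list around Mdm2, Sesn1 was the 1 of 8 genes that passed. Of 73 mitochondrial ribosomal proteins, a list added after values were seen, 7 fell, a smaller share than the 19.8% of all genes. Their median was -0.68, beside -0.45 for all genes. Without WT library 8, 9 fell, against 23.0% of all genes. In edgeR with all libraries 498 of all 10401 genes passed as higher and 1159 as lower. There 1 of the 13 elongation and release factors, 6 of the 35 initiation factors and 5 of the 44 biogenesis factors passed. Of the other TOP genes 2 passed there, of the mTOR list 5 and of the mitochondrial ribosomal proteins 3.

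At 16 h after injection no member passed between rAPOE and PBS. Of 82 members tested, 0 passed in limma, against a background of 34 of 7066 genes (0.481%), 0.368% higher and 0.113% lower. In edgeR 0 members passed, against 23 genes higher and 1 lower. An unadjusted p under 0.05 was found for 12 members in limma, against 792 of the 7066 genes, and for 11 in edgeR, against 576. The log2 difference was above 0 in 76 of the 82 members, against 49.4% of all genes. The median was 0.36 for the members, against -0.01 for all genes. The groups did not overlap for 2 members, both higher in rAPOE, against 1.59% of all genes, and for 0 members lower, against 1.54%. In 27 members with a mean of 500 or more the difference was above 0 in all 27, with a median of 0.29. Of all 163 genes at that level 52.1% were above 0, with a median of 0.02.

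Members moved together from library to library within both groups. Their summed share was 6.01, 4.08, 4.93, 3.18 and 4.35% in rAPOE libraries 1 to 5, against 3.06, 6.20, 2.87, 2.56 and 3.44% in PBS libraries 1 to 5. The highest and second highest shares of the injected libraries thus stand one in each group. PBS library 2 was the highest of its group in 67 of 82 members and PBS library 4 the lowest in 50, and rAPOE library 1 was the highest in 51 and rAPOE library 4 the lowest in 59. The median difference was 0.54 without PBS library 2, 0.25 without rAPOE library 1, 0.23 without PBS library 4 and 0.51 without rAPOE library 4. Because members share these libraries, their common sign is not 76 separate observations. Microglia markers summed to 2.14 to 3.32% in rAPOE, against 2.99 to 4.13% in PBS. Of 14 markers 3 passed as lower in limma, against 0.113% of all genes, and 0 passed in edgeR. Their median log2 difference was -0.52, with 8 at an unadjusted p under 0.05 in each tool. The part of these markers in the result was not tested.

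The smallest adjusted p belonged to Rps2 (chr17:24718116-24721929, plus strand), a protein near the entry of the message channel. It had 891, 826, 426, 444 and 507 in rAPOE, against 330, 355, 186, 252 and 235 in PBS. The groups did not overlap, with a log2 difference of 1.15 (SE 0.27, limma adjusted p = 0.0645). It passed in 6 of 18 alternatives, with adjusted p-values from 0.0160 to 0.234 over all of them, among them leaving out PBS library 2 (0.0427) and rAPOE library 3 (0.0301). The transcript shares 78.1% of its last windows with 40 other genes.

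Rpl7a (chr2:26910764-26913318, plus strand) was the other member without overlap. It had 233, 192, 118, 161 and 174 in rAPOE, against 88.5, 92.3, 102, 100 and 89.4 in PBS, with a difference of 0.85 (SE 0.30, limma adjusted p = 0.266). Its PBS values were close together, and it shares 68.2% of its last windows with 41 other genes. Rps27l (chr9:66946086-66949516, plus strand) had 152, 197, 106, 89.2 and 144 in rAPOE, against 54.6, 113, 46.4, 38.9 and 62.4 in PBS. PBS library 2 lay within the rAPOE range, and the difference was 1.16 (SE 0.38, limma adjusted p = 0.225). Its parent Rps27 had a difference of 0.02 (SE 0.32).

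Rplp0 had 795, 606, 578, 456 and 417 in rAPOE, against 334, 483, 304, 203 and 273 in PBS, with a difference of 0.85 (SE 0.26, limma adjusted p = 0.197). Rplp1 had 0.39 and Rplp2 0.42, and both had adjusted p-values over 0.7. The ratio of Rplp1 to Rplp2 tags ran from 2.87 to 6.67 in rAPOE, against 3.45 to 7.09 in PBS, and the groups overlapped. Rps19 had 421, 406, 201, 209 and 298 in rAPOE, against 268, 143, 194, 88.9 and 165 in PBS, with a difference of 0.85 (adjusted p = 0.307), and Rps7 one of 0.79 (adjusted p = 0.418).

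**Figure D5:**
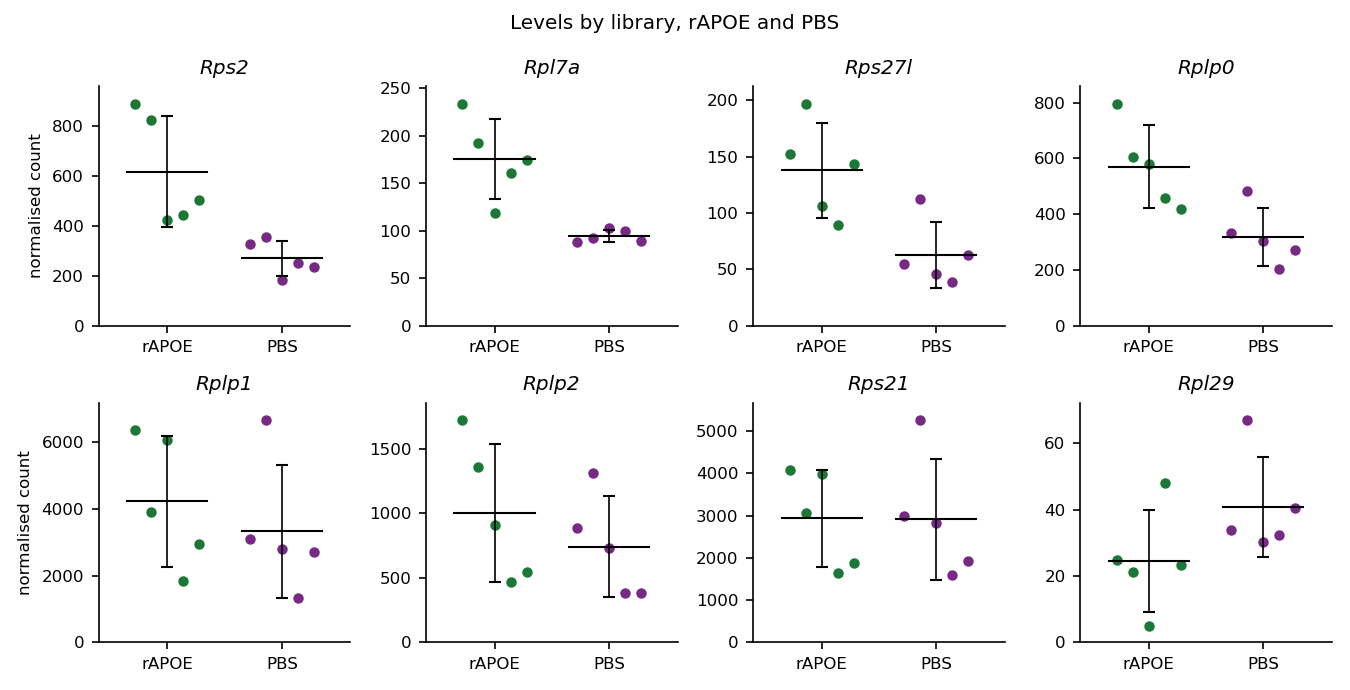
Normalised counts (vertical axes, from 0) of 8 members in rAPOE and PBS libraries; points are libraries and lines means with SD. Rps2 and Rpl7a are higher in every rAPOE library than in any PBS library, Rplp1, Rplp2 and Rps21 spread widely in both groups, and none of the 8 passed.

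The 6 members with a difference under 0 included Rpl29, Rpl36al, Rps27rt, Rpl17 and Rpl37rt, and none of the 6 passed. Rpl29 had 24.7, 21.2, 5.02, 48.1 and 23.3 in rAPOE, against 33.9, 67.0, 30.4, 32.3 and 40.5 in PBS, with a difference of -0.93 (SE 0.64, limma adjusted p = 0.618). The groups overlap. Rpl36al had a difference of -0.81, Rps27rt -0.45, Rpl17 -0.32 and Rpl37rt -0.10. Of the 7 members not tested for low values, Rps6 had 1.18 to 12.4 in rAPOE, against 0 to 10.5 in PBS, Rpl24 was above 0 in 1 library of each group, and the others, Rps4l, Rpl39l, Rps3a3, Rps3a2 and Rpl6l, had means under 10.

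The lists of translation and biogenesis genes also had medians above 0 after rAPOE, 0.56 over 35 initiation factors, 0.38 over 12 elongation and release factors, 0.61 over 40 biogenesis factors and 0.44 over 56 mitochondrial ribosomal proteins, and 0 genes in these lists passed in limma or edgeR. At an unadjusted p under 0.05 limma and edgeR had 7 and 5 initiation factors, 5 and 4 elongation and release factors, and 4 and 4 biogenesis factors. They had 6 and 3 mitochondrial ribosomal proteins at that level, and 792 and 576 of all 7066 genes. Among 8 genes around Mdm2, Cdkn1a, a cell cycle inhibitor induced by p53, rose by 2.30 (limma adjusted p = 0.00677), at 178 to 253 in rAPOE, against 14.9 to 81.6 in PBS. Of 22 genes of mTOR and S6 kinase signalling 0 passed in limma or edgeR, with 2 at an unadjusted p under 0.05 in each.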

How the data were processed

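Mouse microglial RNA was read as QuantSeq 3′ FWD tags on an Illumina MiniSeq, per the labels' protocols. The build GRCm38.p3, Picard 1.8.4, HTSeq, R 3.2.3 and DESeq2 are named by the submitters' processing notes, without roles; no aligner or rule for shared tags is named. Each deposited signal is a gene's read count divided by a library-wide factor, in 2 tables that were each scaled apart, so no test spans both. All values of a library were whole multiples of 1 step (100% within tolerance 0.01), from which reads were recovered. From the uninjected table, 22 entries named as dates and 120 at 0 throughout were left out.

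Differences were fitted with limma 3.58.1 (R 4.3.3; lmFit, eBayes with trend) on log2(normalised count + 1) over all genes with a mean of at least 10, which kept 84 and 82 members, and p-values were Benjamini-Hochberg adjusted over all genes tested. The scale understates the change of low genes. edgeR 4.0.16 on recovered reads, other scalings, filters and pseudocounts, and leaving out libraries were alternatives. The fit was tested on simulated data. Reads carry no molecular identifiers, so the limit at a count of 0 covers counting error only. Members, lists and the rule for named genes (members that passed, the 6 largest differences each way, the 5 highest and lowest levels, the stalk, paralogs, and up to 4 passing genes per list) were chosen with earlier results of these data known. Single values of some members are not reported here, though the counts and medians include them.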

Additional observations from a re-analysis of the deposited data

Results flagged for a closer look

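In groups of 4 to 10 samples a library was marked where its gap to the nearest other library was too large a part of the group's range (Dixon's test at 95%), which chance does in about 1 in 20 groups. WT library 8 was marked for the members' summed share, at 0.994%, and for 53 of 84 members, and PBS library 2 for the summed share, at 6.20%, and for 14 of 82 members. KO library 1 was marked for 3 members, rAPOE library 1 for 2, and KO libraries 3 and 4, rAPOE library 4 and PBS library 5 for 1 each. The values below are normalised counts of members described above.

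In the stalk, WT library 8 was marked, as the lowest of its group, for Rplp0 at 367 and Rplp2 at 1257. In the small subunit it was marked as lowest for Rps7 at 218, Rps12 at 1331, Rps14 at 1907, Rps15a at 307, Rps19 at 419, Rps21 at 1816, Rps24 at 1161, Rps26 at 350.3, Rps27 at 309 and Rpsa at 125. In the large subunit it was marked as lowest for Rpl4 at 672, Rpl7 at 502, Rpl7a at 242, Rpl11 at 581, Rpl14 at 316, Rpl17 at 157, Rpl21 at 435, Rpl22 at 478, Rpl23 at 828.7, Rpl26 at 457, Rpl36a at 617, Rpl37 at 1036, Rpl39 at 74.0 and Rpl41 at 99.3. Among the copies it was marked as lowest for Rpl22l1 at 21.7.

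KO library 1 was the lowest of its group for Rpl22 at 752 and the highest for Rps7 at 606, and KO library 4 the highest for Rpl37rt at 28.4. In rAPOE, library 4 was marked as lowest for Rpl11 at 554. PBS library 2 was marked as highest for Rpl11 at 1258, Rpl13 at 1178, Rpl23 at 1206, Rpl29 at 67.0, Rpl37rt at 125 and Rps26 at 582, and PBS library 5 as highest for Rps4x at 73.4.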

How the results depend on the processing

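Without WT library 8 and with TMM scaling 4 of 84 members were higher and 24 lower in KO, against 784 and 2379 of 10352 genes. With quantile scaling 6 were higher and 27 lower, against 1584 and 1563 genes. With edgeR 5 were higher and 19 lower, against 823 and 1439 genes. In each of these fits the share lower was larger, and the share higher smaller, in members than in all genes. All of these fits were added after the data were seen. Leaving out 1 library at a time gave 1 to 5 higher and 3 to 23 lower members, the upper ends without WT library 8. With no filter on the mean 5 were lower, Rpl24 and Rps3a3 being added. Same-numbered samples did not deviate together in every pair (r from -0.03 to 0.02 in the uninjected and from -0.004 to 0.19 in the injected table), so numbers were not taken as pairs; a replicate block gave 13 lower members, and 15 without WT library 8. Between rAPOE and PBS 1 member, Rps2, passed as higher with quantile scaling, a pseudocount of 5, a mean of at least 50 and the replicate block, and 0 to 1 passed when 1 library was left out. Rpl37rt had 1.37 with quantile scaling and 1.28 with that and WT library 8 left out, and between rAPOE and PBS -0.31 to 0.14 when 1 library was left out. The members' median, KO against WT, was 0.04 with quantile scaling and 0.01 without KO library 4. The causes were not tested. Depth limits the low members most in the injected libraries, at 704225 to 1347501 reads.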
